A study of Canis lupus familiaris with 5 samples.

Results

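GZMB encodes granzyme B, a serine protease best known from the cytotoxic granules of T cells and natural killer cells. Its mRNA was followed here through the bone marrow of 3 healthy dogs, where most of it was carried by cells that express MPO and ELANE. The gene is 1 row (ENSCAFG00000025287) of the 20257 features counted in each library, and 24708 of 27953 deposited barcodes passed the limits of at least 200 genes and at most 10% mitochondrial unique molecular identifiers (UMIs, 1 per captured mRNA molecule). Cells were placed in 9 gates chosen by raw UMIs of other genes, and GZMB was selected on its own measured levels over these gates, so those levels are given as a description with no test. The MPO gate (MPO of at least 0.1% of a cell's UMIs and ELANE under 1%) held 1095 cells and the ELANE gate (ELANE of at least 1%) held 1049 cells. The other gates were CAMP of at least 1% (5340 cells), at least 2 UMIs of CD3E, CD3D and CD3G together (the T cell gate, 1878 cells), at least 5 VPREB1 UMIs (4127 cells), at least 4 UMIs of SULT1B1 and TFPI together (the stem-like gate, 3344 cells), at least 2 VCAN UMIs (1408 cells), at least 2 EPX UMIs (40 cells), and at least 5 UMIs each of IRF8 and TCF4 with no PAX5 (the plasmacytoid dendritic gate, 20 cells). A cell could pass more than 1 gate.

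All animals were wild type by the labels. Unsorted femoral marrow after red cell lysis, passed on only where viability was high and the neutrophil share low by flow cytometry, gave 3 whole-marrow libraries, 1 per dog. Viable CD34-positive cells, sorted from the marrows of dogs 2 and 3, gave 2 CD34-sorted libraries. CD34 is a surface protein of stem and progenitor cells. Libraries held 46114431 to 70169186 UMIs in all, with medians of 2694 to 4344 UMIs per kept cell in whole marrow and of 11622 and 14623 in the sorted libraries, and pairs of libraries shared 3 to 11 barcodes.

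Granzyme B is made as a proenzyme, is activated by cathepsin C (CTSC), is stored bound to serglycin (SRGN), and enters target cells with the help of perforin (PRF1), where it cleaves BID and nuclear proteins among others. SERPINB9 is its known inhibitor in human and mouse cells. Neutrophil serine proteases such as elastase (ELANE) are handled alike: they are made at the promyelocyte stage, activated by cathepsin C and stored in primary granules with myeloperoxidase (MPO), while antimicrobial CAMP follows at the next, secondary granule stage. Mast cell chymase (CMA1), cathepsin G (CTSG) and GZMB lie in 1 cluster of related genes. In the RefSeq annotation of another dog assembly, UU_Cfam_GSD_1.0, GZMB stood next to LOC490629, with CTSG and CMA1 beyond it. CTSG and LOC490629 were not analysed here, and whether reads from these relatives reached the GZMB row was not tested.

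The gates were first checked against marker genes of each cell type. BPI, which encodes a bactericidal protein of primary granules and defines no gate, stood at 1332, 1336 and 1539 CPM (counts per 1000000 UMIs) in the ELANE gate of marrows 1, 2 and 3. In the MPO gate it stood at 285, 489 and 512 CPM in whole marrow and at 185 and 225 CPM in the sorted libraries. The whole-marrow MPO gate was mixed, and its 6 later granulocyte markers summed to 7431, 5557 and 16228 CPM. Its 4 monocyte markers, LYZ among them, summed to 8683, 14597 and 10869 CPM, and 5 stem and progenitor markers to 76.9, 67.9 and 97.0 CPM. In the sorted MPO gate these sums were 10.2 and 20.7, 223 and 1108, and 259 and 209 CPM, in that order. The monocyte markers summed to 12078, 17535 and 17776 CPM in the ELANE gate of marrows 1, 2 and 3. LYZ, also listed as a primary granule gene, alone made 12074, 17524 and 17772 CPM there. A monocyte sum with LYZ therefore does not show monocytes by itself. The 5 measured natural killer markers, KLRD1 and NCR1 among them, were all at 0 in the MPO gate of all 5 libraries, and they summed to at most 2.00 CPM in the ELANE gate. The T cell gate of whole marrow held CD3E at 971, 580 and 332 CPM in marrows 1, 2 and 3. In the CD34-sorted libraries the same gate held CD3E at 11.8 and 6.12 CPM, and 64.7% and 63.0% of its cells also passed the stem-like gate, so its label does not describe sorted cells and the gate is used in whole marrow only. There it was mixed too. Its 7 T cell markers summed to 2198, 1364 and 847 CPM, and 6 basophil and mast cell markers to 159, 1000 and 1718 CPM, more than the T cell markers in marrow 3. ELANE stood at 1531, 384 and 2522 CPM in the same cells, and the 4 monocyte markers, with LYZ, summed to 3812, 16892 and 13742 CPM.

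GZMB was highest in the ELANE gate. Its level there was 2072, 6728 and 6457 CPM in marrows 1, 2 and 3, which is 5085 ± 2613 CPM (SD, n = 3). Marrow 1 lay far below the other 2 marrows. Of the gate's cells, 99.4% (513 of 516, exact 95% interval 98.3 to 99.9), 100% (all 279) and 100% (all 232) held at least 1 GZMB UMI. The median cell carried 26, 86 and 126.5 GZMB UMIs, and 15.5%, 81.0% and 94.4% of cells carried 50 or more. These intervals, and all others below, cover counting error only. With each cell thinned to 1000 UMIs, the positive share was still 83.9%, 99.6% and 99.6%. Sorted marrow held only 3 and 19 such cells, all positive, with medians of 176 and 122 GZMB UMIs.

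GZMB was next followed in the MPO gate, which takes cells with MPO and little ELANE and in whole marrow also held later granulocyte markers. GZMB stood at 323, 960 and 1105 CPM in whole marrow (796 ± 416, SD, n = 3) and at 528 and 544 CPM in the sorted libraries (536 ± 11.4, SD, n = 2). The sorted values fell inside the whole-marrow range. Positive cells made up 40.7%, 73.1% and 51.1% in whole marrow and 65.6% and 70.1% in sorted marrow, at median depths of 1280, 24787, 2324, 26822 and 30507 UMIs in that order. Thinned to 1000 UMIs, the shares were 25.3%, 52.9% and 41.0% in whole marrow and 24.7% and 25.6% in sorted marrow. The gate was mixed: the median cell carried 0, 8, 1, 2 and 3 GZMB UMIs, while the highest cell carried 72, 161, 130, 272 and 173.

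**Figure D1:**
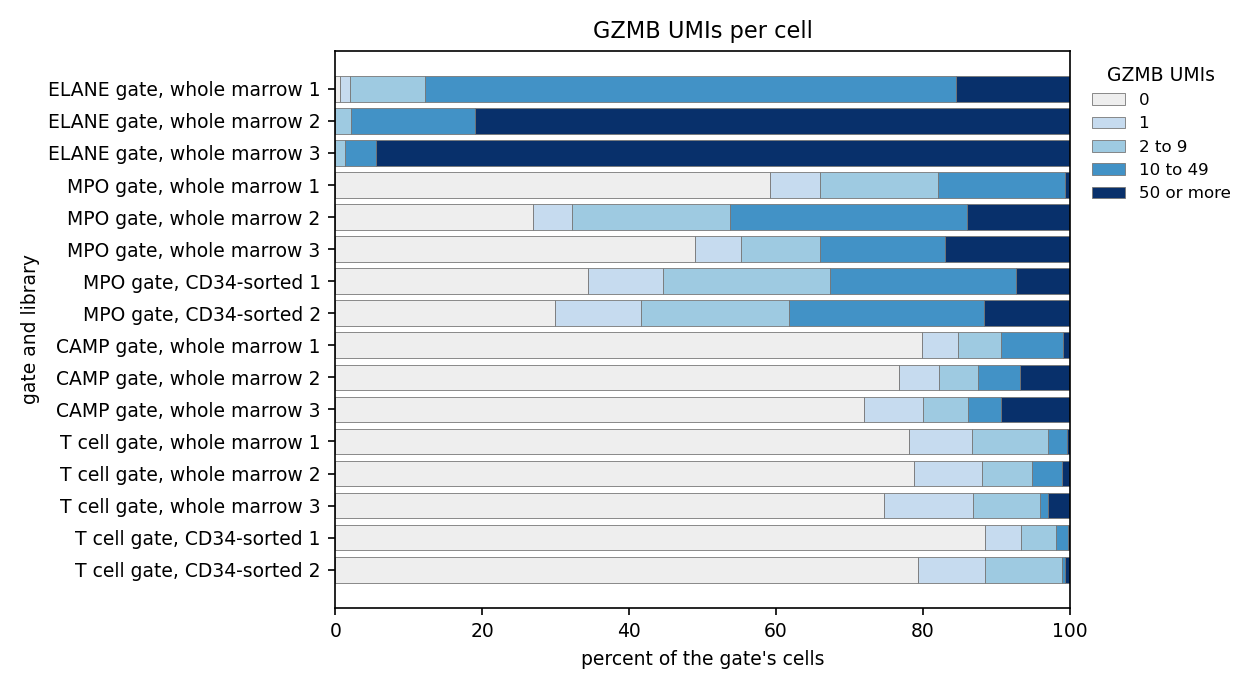
Percent of cells (x axis) with 0, 1, 2 to 9, 10 to 49, and 50 or more GZMB UMIs, for each gate and library with at least 20 cells (y axis). Nearly all ELANE gate cells were positive, whereas the MPO gate held cells with 0 and cells with 50 or more GZMB UMIs in every library.

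**Figure D2:**
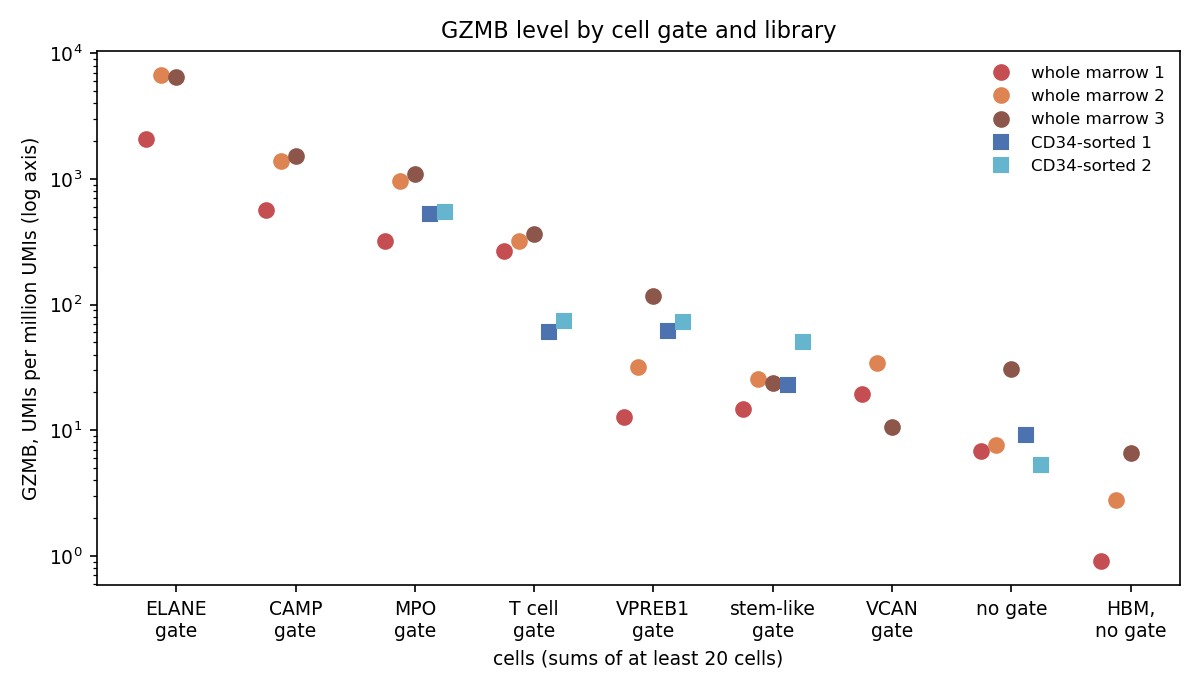
GZMB level in CPM (log y axis) in each gate (x axis), 1 point per library with at least 20 cells, circles for whole marrow and squares for CD34-sorted marrow. The ELANE gate lay at 2072 to 6728 CPM, above each other gate in all 3 whole marrows.

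Few cells carried most of the GZMB message of whole marrow. When each cell was counted once, in the order ELANE, MPO and then the other gates, the ELANE gate held 87.1%, 87.5% and 88.1% of all GZMB UMIs with 7.07%, 6.09% and 5.34% of the kept cells. The T cell gate then held 1.22%, 0.865% and 0.377%. In the sorted libraries, where ELANE cells were rare, the MPO gate held 79.4% and 64.3% of GZMB UMIs with 9.36% and 9.32% of the cells.

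Across the gates of whole marrow the order was ELANE, CAMP, MPO and T cell in each of the 3 libraries. The lowest ELANE gate value, 2072 CPM, was above the highest CAMP gate value of 1524 CPM. The CAMP and MPO gates overlapped, with ranges of 568 to 1524 and 323 to 1105 CPM, as did the MPO and T cell gates, the last at 267 to 367 CPM, below every CAMP gate value. The CAMP gate shared 44.6%, 46.2% and 53.0% of the ELANE gate's cells, and its cells that passed no other gate held 119, 203 and 281 CPM. The stem-like gate stood at 14.7, 25.7 and 23.8 CPM in whole marrow and at 22.9 and 50.1 CPM in sorted marrow. VCAN gate cells, whose gene marks monocytes, stood at 19.5, 34.3 and 10.5 CPM, and at 1.75, 4.59 and 10.6 CPM where they passed no other gate. In the VCAN gate 4 erythroid markers summed to 5825, 3736 and 5168 CPM, so its label may not cover all of its cells. The EPX gate, for the eosinophil peroxidase, reached 20 cells only in marrow 2, at 68.1 CPM. There 1 of its 25 cells carried 19 of the 24 GZMB UMIs, and the 19 cells that passed no other gate held 5. The 20 cells of the plasmacytoid dendritic gate held 1 GZMB UMI among them, although human plasmacytoid dendritic cells are known for GZMB. As a reference for free RNA, erythroid cells of whole marrow with HBM of at least 1% of UMIs and no gate held 0.909, 2.76 and 6.63 CPM. Of these deep cells (medians of 34819, 34657.5 and 47066 UMIs), 3.14%, 9.01% and 23.8% held a GZMB UMI, and after thinning to 1000 UMIs none did. VCAN and VPREB1 gate cells were shallower, so these CPM and thinned shares give no floor for free RNA there. As counts, 159, 222 and 122 erythroid cells held 5, 21 and 35 GZMB UMIs. The 540, 477 and 288 cells in the VCAN gate alone held 17, 40 and 72. Whether the low levels in whole marrow exceeded free RNA was not tested.

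In sorted cells with ELANE under 1%, GZMB stood higher in each bin with more MPO between MPO shares of 0.02% and 1%, but not below that. Cells with no MPO UMI held 22.3 and 24.5 CPM, cells with MPO above 0 and under 0.02% held 11.6 and 12.8 CPM, and cells at 0.02 to 0.05% held 15.5 and 10.1 CPM. Just outside the gate, at 0.05 to 0.1%, the values were 27.2 and 33.2 CPM, and just inside it, at 0.1 to 0.2%, they were 35.6 and 82.3 CPM. GZMB reached 223 and 265 CPM at 0.2 to 0.5% and 1132 and 1410 CPM at 0.5 to 1%, where 96.2% and 95.5% of cells were positive. The 12 and 6 cells at 1% or more were all positive, with medians of 79.5 and 52.5 GZMB UMIs. The median ELANE share of each of these sorted bins was at most 0.0714%. MPO defined the bins, so these values are a description.

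In whole marrow the CPM of the bins did not follow that order. GZMB stood at 240, 1159 and 1901 CPM at 0.1 to 0.2% MPO, and at 237 and 331 CPM at 0.2 to 0.5% in marrows 1 and 2, while marrow 3 had only 13 cells there. In the first of these bins 16.5%, 29.5% and 16.7% of cells also passed the CAMP gate, and in marrows 1 and 3 its median cell held 789 and 1818.5 UMIs, so that 1 or 2 MPO UMIs were enough to enter it. Among cells with at least 5 MPO UMIs and CAMP under 1%, the bin of 0.2 to 0.5% MPO held 237 and 323 CPM in marrows 1 and 2, against 223 and 263 CPM in the sorted libraries. In these cells the median was 17, 44 and 41 GZMB UMIs at 0.5 to 1% MPO (13, 19 and 3 cells in marrows 1, 2 and 3), against 5.5, 7 and 3.5 at 0.2 to 0.5% (32, 24 and 10 cells) and 1, 8 and 6 at 0.1 to 0.2% (17, 11 and 4 cells). The median was thus higher at 0.5 to 1% than in both lower bins of all 3 marrows, in few cells, while the 2 lower bins kept no common order.

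**Figure D3:**
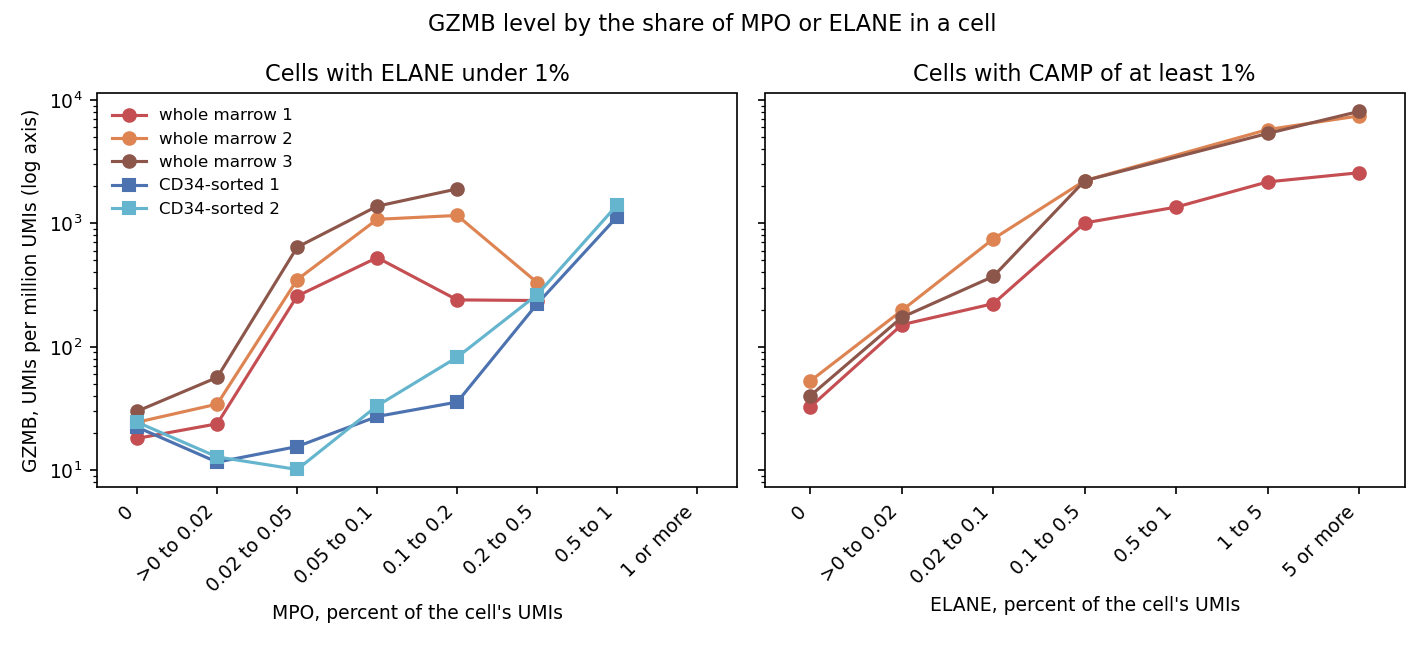
GZMB level in CPM (log y axis) against the MPO share of a cell among cells with ELANE under 1% (left), and against the ELANE share among cells with CAMP of at least 1% (right), for bins of at least 20 cells, 1 line per library. The sorted libraries ran from 15.5 and 10.1 CPM at 0.02 to 0.05% MPO to 1132 and 1410 CPM at 0.5 to 1% MPO, and in CAMP cells GZMB was higher in the bins with more ELANE.

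Among CAMP cells, GZMB was lower in each bin with less ELANE. Where ELANE was at 5% or more, GZMB stood at 2570, 7427 and 8073 CPM in marrows 1, 2 and 3. At 0.1 to 0.5% ELANE it stood at 1008, 2219 and 2216 CPM, and where no ELANE UMI was found at 32.6, 52.9 and 40.2 CPM. Within the ELANE gate the CAMP share made little difference: cells with CAMP under 0.1% held 1815, 6402 and 5479 CPM, and cells with CAMP of 5% or more held 2133, 6156 and 5550 CPM. Over all cells, those just outside the ELANE gate, at 0.5 to 1% ELANE, carried medians of 6.5, 27 and 30 GZMB UMIs, and those just inside it, at 1 to 2%, carried 16, 33 and 90.

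Single cells of the ELANE gate differed widely. From the 10th to the 90th percentile of cells GZMB ran from 941 to 3465 CPM in marrow 1, from 3815 to 10519 in marrow 2 and from 3512 to 11170 in marrow 3. Over these cells, which share a library but differ in UMIs per cell, Spearman's rho between the per-cell levels of GZMB and BPI was 0.43, 0.32 and 0.46. It was 0.23, 0.18 and 0.47 with ELANE, 0.18, 0.30 and 0.31 with MPO, and 0.15, 0.12 and 0.37 with SRGN. With CAMP it was 0.13, 0.0021 and 0.024, and with LTF -0.0014, -0.096 and -0.13. Against the UMIs per cell it was -0.0026, -0.011 and -0.24. Cells with at least 2 UMIs of the cycle genes TOP2A and MKI67 held 2036, 6645 and 5822 CPM, and cells with none held 2088, 7100 and 7159 CPM.

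Marrow 1 was set apart by GZMB more than by the genes that define the stage. In the ELANE gate the log2 ratio of its level to the mean of marrows 2 and 3 was -1.67 for GZMB, the 49th lowest of 1385 genes compared, whose median was -0.07. The same log2 ratio was -0.46 for MPO, -0.36 for ELANE and -0.11 for BPI. CTSC, whose product activates granzymes, stood at 32.8, 94.6 and 56.4 CPM, and the glycogen-priming gene GYG1 at 88.2, 182 and 183 CPM. With 1 library, this difference has no replicate check.

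Among T cell gate cells of whole marrow with no ELANE or MPO UMI, the share with GZMB was highest beside the granzyme gene GZMA. To keep progenitor RNA out, T cell gate cells with no ELANE and no MPO UMI were taken. Of those with a UMI of GZMA, the granzyme of many cytotoxic T and natural killer cells, 70.6% (24 of 34), 56.3% (9 of 16) and 40.0% (2 of 5) also held GZMB. Of those with GZMK, a granzyme of memory T cells, and no GZMA, 26.9%, 38.5% and 23.1% of 52, 13 and 13 cells did. Of those with neither, 6.94%, 4.40% and 11.1% of 144, 91 and 81 cells did. In marrow 3, 9 of the 14 GZMB positive cells held neither. The share was highest in the GZMA positive cells of each marrow, which carried 121, 21 and 7 GZMB UMIs. Only marrow 1 had 20 or more of them, at 1255 CPM. Over the whole T cell gate GZMB stood at 267, 323 and 367 CPM, and its cells that passed no other gate held 234, 309 and 85.0 CPM. In marrow 2 a single cell carried 177 of the 262 GZMB UMIs of the latter. The T cell gate cells with no ELANE and no MPO UMI held 178, 57.4 and 27.0 CPM. The 3, 0 and 8 cells of the gate with ELANE of at least 1% were all positive and carried 142, 0 and 1070 GZMB UMIs, so that in marrow 3 they held most of the gate's 1221.

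A low level of GZMB was also found in cells with VPREB1, the surrogate light chain gene of B cell precursors. In the sorted libraries, VPREB1 gate cells with no MPO and no ELANE UMI held 52.9 and 63.9 CPM, and 14.8% (exact 95% interval 13.2 to 16.5) and 23.6% (21.3 to 26.1) of 1778 and 1252 cells were positive. Stem-like cells of the same libraries with no VPREB1 gate, MPO or ELANE UMI held 1.60 and 1.98 CPM, and 1.99% (1.03 to 3.46) and 2.30% (1.19 to 3.98) of 602 and 522 cells were positive, at greater median depths of 12842 and 14289 UMIs against 3796 and 6242. In cells that passed 1 gate alone, GZMB UMIs per MPO UMI were 0.130 and 0.145 in the MPO gate, 0.0513 and 0.0433 in the stem-like gate, and 1.30 and 1.83 in the VPREB1 gate. Among the VPREB1 gate cells, those with at least 2 UMIs of TOP2A and MKI67 held 82.0 and 74.2 CPM, and those with none held 21.2 and 35.0 CPM. Their positive cells were mostly at low counts, and 7.09% and 12.1% of all these cells held 2 or more GZMB UMIs. In whole marrow only 136, 35 and 69 such cells were present, with 12, 4 and 17 GZMB UMIs.

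The partner genes of granzyme B in lymphocytes were compared between the MPO gate and the T cell gate of whole marrow, each gate summed per library, with cells in both left out. GZMB itself, which was selected on its levels over these gates, was not tested. Over all 6967 genes tested, 9.80% were higher and 12.7% lower in the MPO gate at an adjusted p under 0.05 (edgeR, as for all fits), with a median log2 difference of -0.03. GZMA, GZMK and CTSW, which encodes the lymphocyte cathepsin W, were all lower in the MPO gate. The basophil, mast cell and monocyte markers given above for the T cell gate were part of its sums. So were its 3, 0 and 8 cells with ELANE of at least 1%, which the MPO gate does not hold. The part of these in the differences below was not tested. GZMA stood at 72.4, 147 and 7.81 CPM in the T cell gate of marrows 1, 2 and 3, and at 1 UMI in all in the MPO gate, which is 306-fold less (95% counting interval 54.6 to 12124). GZMK stood at 322, 82.2 and 68.5 CPM in the T cell gate and had 0 UMIs in the MPO gate, so it was at least 238-fold higher in the T cell gate, against a floor of 3 UMIs over the 3 libraries. CTSW stood at 50.7, 102 and 31.6 CPM against 0 UMIs, at least 96.0-fold higher by the same floor. PRF1 was scarce throughout, with 10 UMIs in the T cell gates, 0 in the MPO gates and 0 among 16654937 UMIs of the ELANE gates. SERPINB9 had 9, 0 and 0 UMIs in the same cells. In the ELANE gates GZMA had 1 UMI, GZMK 7 and CTSW 0.

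Of the list of granzymes and chymase-locus proteases, 2 of 3 tested members (GZMA and GZMK) were lower in the MPO gate and CMA1, at 50.1, 569 and 935 CPM in the T cell gate, was not called. Of 4 tested cytotoxic granule proteins, CTSW was lower and SRGN was higher, with a log2 difference of 0.56 ± 0.17 (SE, n = 3 libraries, adjusted p = 0.0330). That call was lost without marrow 1 (adjusted p = 0.132) or without marrow 2 (adjusted p = 0.133). Of 5 tested genes for processing and sorting, CTSH, a cathepsin (log2 difference -1.83 ± 0.38), and IGF2R, the receptor that sorts enzymes to lysosomes (-0.83 ± 0.19), were lower, and both calls were lost without marrow 2 (adjusted p = 0.159 and 0.187). CTSC was at -1.48 ± 0.48 with an adjusted p of 0.106. Of 3 tested inhibitors, SERPINB1, an inhibitor of neutrophil proteases, was higher (0.89 ± 0.17), a call lost without marrow 2 (adjusted p = 0.0742). The only tested cytotoxic transcription factor, PRDM1, was lower (-3.26 ± 0.35), while TBX21, EOMES, RUNX3 and ZNF683 were too low to test. Of 5 tested granulocyte factors, CEBPE, needed for granule gene expression (1.62 ± 0.22), and MYB, a progenitor factor (1.23 ± 0.18), were higher. Of 4 tested primary granule genes, BPI (0.93 ± 0.13) and the serine protease gene PRSS57 (1.71 ± 0.28) were higher, the second not without marrow 3 (adjusted p = 0.147). Among targets of granzyme B, CASP8 (-1.65 ± 0.26) and BID (-0.70 ± 0.19) were lower, and BID was not called without marrow 2 (adjusted p = 0.255). Of 6 tested exocytosis genes only VAMP7 was higher (1.03 ± 0.32), which was lost without any 1 of the marrows (adjusted p = 0.0763 to 0.147).

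**Figure D4:**
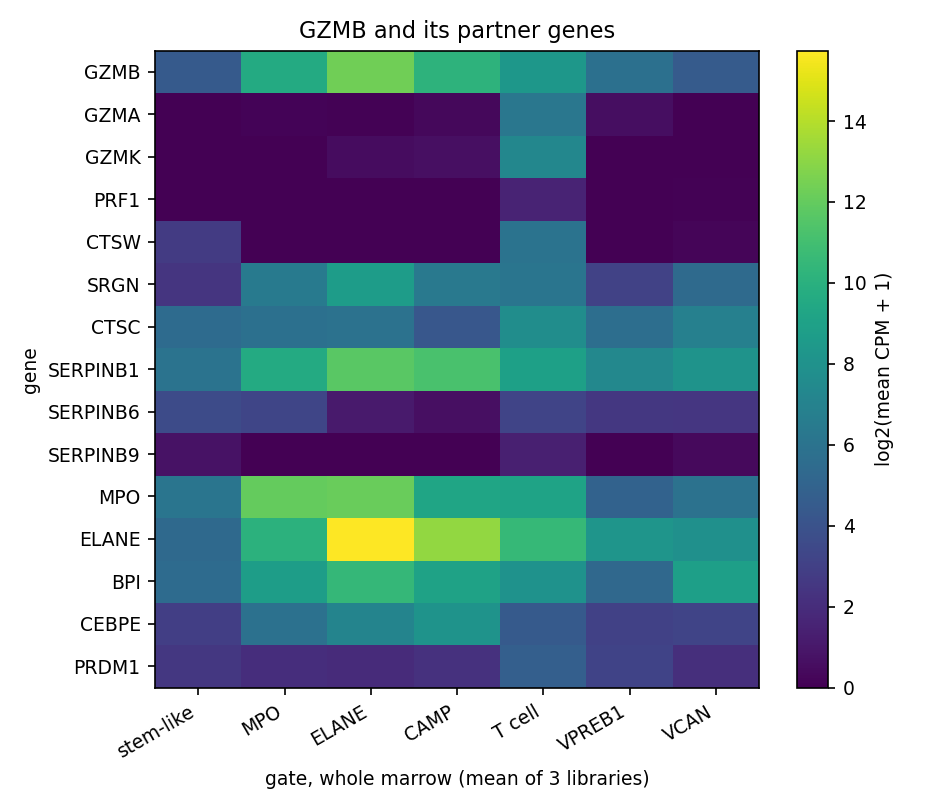
GZMB, other granzymes, their partners and granulocyte genes (y axis) by gate (x axis) in whole marrow, as log2(mean CPM + 1) over 3 libraries. GZMB shares the ELANE gate with SRGN, SERPINB1 and BPI, whereas GZMA, GZMK and CTSW stand in the T cell gate.

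GZMB stood higher in the MPO gate than in the stem-like gate of every library, and the tested primary granule genes were higher there too. The 5 libraries came from 3 dogs, so they are not 5 independent animals, although each library entered the fit as its own block. In the sorted libraries it stood at 22.9 and 50.1 CPM in the stem-like gate against 528 and 544 CPM in the MPO gate, and in whole marrow at 14.7, 25.7 and 23.8 CPM against 323, 960 and 1105 CPM. Stem-like cells in no other gate held 2.55 and 2.86 CPM in the sorted libraries. The VPREB1 gate was also passed by 69.4%, 27.6% and 47.7% of the stem-like cells of whole marrow and by 36.4% and 47.9% of the sorted ones. In the sorted stem-like gate 6 pro-B cell markers summed to 2070 and 3348 CPM and 5 stem and progenitor markers to 1182 and 1105 CPM, and in the sorted MPO gate the pro-B sums were 136 and 163 CPM. The part of these cells in the differences was not tested. Over all 5 libraries and 7383 genes tested, 24.3% were higher and 23.2% lower in the MPO gate, with a median log2 difference of 0.01. All 4 tested primary granule genes were higher: SERPINB10, a serpin of myeloid cells (log2 difference 5.09 ± 0.24), LYZ, lysozyme (4.24 ± 0.78), PRSS57 (2.70 ± 0.11) and BPI (2.67 ± 0.31). LYZ had an adjusted p of 0.0134, and of 0.0501 without marrow 3. All 3 tested cytotoxic granule proteins were higher too, SRGN by 4.31 ± 0.21, LAMP1 by 0.88 ± 0.14 and LAMP2, like LAMP1 a lysosomal membrane protein, by 0.57 ± 0.12. SRGN stood at 2.71 and 2.14 CPM in the sorted stem-like gate and at 29.6 and 30.8 CPM in the sorted MPO gate. Of 5 genes for processing and sorting, 3 were higher: IGF2R (1.34 ± 0.30), CTSC (0.56 ± 0.11) and M6PR (0.56 ± 0.12). Of 3 tested inhibitors SERPINB1 (3.48 ± 0.27) and SERPINB8 (1.93 ± 0.21) were higher. Of 5 tested granulocyte factors CEBPE (4.65 ± 0.29), SPI1 (1.46 ± 0.16) and GFI1 (0.90 ± 0.14) were higher. CMA1, the only tested member of the granzyme and chymase list (GZMB was not tested), was lower (-1.02 ± 0.18). Among targets of granzyme B, DFFA was higher (0.52 ± 0.11) and PARP1 (-1.06 ± 0.15), LMNB1 (-0.73 ± 0.11) and CASP8 (-0.44 ± 0.14) were lower. CASP8 was not called without either sorted library (adjusted p = 0.0703 and 0.126). Of 5 tested exocytosis genes VAMP8 was higher (0.59 ± 0.13), and UNC13D (0.36 ± 0.13) was higher but not without sorted library 1 (adjusted p = 0.256) or 2 (adjusted p = 0.452).

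SRGN, whose product stores granzyme B, was higher in the ELANE gate than in the MPO gate of whole marrow, and GZMB stood higher there as well. GZMB stood at 323, 960 and 1105 CPM in the MPO gate and at 2072, 6728 and 6457 CPM in the ELANE gate. SRGN stood at 83.8, 92.7 and 94.5 CPM in the MPO gate and at 323, 418 and 506 CPM in the ELANE gate, a log2 difference (MPO minus ELANE) of -3.01 ± 0.12 after scaling. Over 7233 genes tested, 29.0% were higher and 26.6% lower in the MPO gate, with a median of 0.06, so calls were common, and with DESeq2 the split was 901 higher and 1405 lower where edgeR had 2096 and 1925. CPM values are shares, and in the ELANE gate ELANE itself stood at 45862 to 61449 CPM and SLPI at 116617 CPM on average. With library sizes alone as scaling, tried after the data were seen, the median rose to 0.91 and the split was 4978 higher and 336 lower, so the differences below are relative to the trimmed mean of all genes. All 3 tested cytotoxic granule proteins were lower in the MPO gate on that scale, SRGN among them, with LAMP2 at -1.38 ± 0.12 and LAMP1 at -0.62 ± 0.17, but LAMP1 was at 0.23 with library sizes alone (adjusted p = 0.304). LAMP1 stood at 40.1, 47.7 and 13.7 CPM in the MPO gate and at 29.9, 39.4 and 18.0 CPM in the ELANE gate, which overlap. CTSC was the only 1 of 4 processing genes called (-1.01 ± 0.14), at 27.9, 84.1 and 52.2 CPM in the MPO gate and 32.8, 94.6 and 56.4 CPM in the ELANE gate, and it was not called with library sizes alone (adjusted p = 0.354). Of the inhibitors, SERPINB1 was lower in the MPO gate (-2.97 ± 0.15), whereas SERPINB6 (2.21 ± 0.42) and SERPINB8 (1.53 ± 0.26) were higher. Among 4 primary granule genes BPI (-2.59 ± 0.14), LYZ (-1.32 ± 0.17) and PRSS57 (-0.99 ± 0.13) were lower in the MPO gate and SERPINB10 was higher (2.27 ± 0.20), PRSS57 not with library sizes alone (-0.15, adjusted p = 0.130). Among 5 granulocyte factors CEBPE (-2.13 ± 0.13), GFI1 (-1.06 ± 0.14) and MYB (-0.71 ± 0.12) were lower and RUNX1 was higher (1.07 ± 0.21), but with library sizes alone GFI1 was at -0.20 (adjusted p = 0.260) and MYB at 0.15 (adjusted p = 0.316). MYB stood at 102, 108 and 97.0 CPM in the MPO gate and at 87.0, 111 and 80.2 CPM in the ELANE gate. CMA1 was lower (-0.93 ± 0.21), and not called with library sizes alone (-0.11, adjusted p = 0.754). Among targets of granzyme B, PARP1 (1.54 ± 0.13), DFFA (1.02 ± 0.19) and LMNB1 (0.52 ± 0.16) were higher in the MPO gate, and LMNB1 was not called without marrow 1 (adjusted p = 0.316). Of 6 exocytosis genes VAMP7 (-1.47 ± 0.20), VAMP8 (-0.98 ± 0.13) and RAB27A (-0.88 ± 0.13) were lower in the MPO gate, the last 2 not with library sizes alone (adjusted p = 0.267 and 0.850), and STX11 was higher (1.14 ± 0.36) but not without marrow 3 (adjusted p = 0.0969).

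The sort did not choose the cells of the MPO gate, so GZMB was kept in this fit. Its levels in that gate of every library were among those it was selected on, so its differences carry no p-value here. Within the MPO gate GZMB stood at 528 and 544 CPM in CD34-sorted marrow and at 323, 960 and 1105 CPM in whole marrow, so the groups overlapped. Marrow 1, from the dog with no sorted library, gave the 323 CPM. In dogs 2 and 3 the sorted value was the lower, at 528 against 960 and 544 against 1105 CPM. The log2 difference (sorted minus whole) was -0.57 ± 0.54 (SE, edgeR). With the dog as a replicate block, since the sorted cells came from dogs 2 and 3, it was -0.94 ± 0.14, on 1 residual degree of freedom. Without marrow 1 it was -0.94 ± 0.17. With the gate moved to 0.2% MPO it was 0.22 ± 0.43, and without cells that also passed the CAMP gate it was -0.05. CAMP itself stood at 2473, 2927 and 9018 CPM in the whole-marrow gate and at 2.72 and 10.2 CPM in the sorted gate. The monocyte markers, with LYZ, summed to 8683, 14597 and 10869 CPM in the whole-marrow gate, and to 223 and 1108 CPM when sorted. The median mitochondrial share of all kept cells was 1.10%, 1.54% and 1.76% in whole marrow against 6.12% and 7.83% in sorted marrow. The part of these in the differences was not tested. Over 7473 genes 0.120% were higher and 1.65% lower in sorted cells. Of the listed genes 3 were called, all lower in sorted cells. SRGN stood at 83.8, 92.7 and 94.5 CPM in whole marrow and at 29.6 and 30.8 CPM in sorted marrow, with no overlap (log2 difference -1.57 ± 0.17, adjusted p = 0.00908). IGF2R stood at 45.8, 50.8 and 39.8 CPM against 5.53 and 9.20 CPM (-2.62 ± 0.28, adjusted p = 0.00908). STX11, a fusion protein of granule release, stood at 10.9, 5.85 and 12.4 CPM against 0.907 and 0.276 CPM (-3.90 ± 0.63, adjusted p = 0.0307). Without sorted library 1 the adjusted p was 0.0826, 0.0586 and 0.0883 for SRGN, IGF2R and STX11. Without sorted library 2 it was 0.0696 for SRGN and 0.163 for STX11, and without marrow 3 it was 0.0643 for STX11.

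The 10 genes most like GZMB were found by Pearson's r on log2(CPM + 1) over 30 sums of gate and library, among 6406 genes that reached 20 CPM in at least 1 sum and define no gate. They were CHI3L1, a chitinase-like secreted protein of neutrophils and macrophages, 2 genes with no symbol (ENSCAFG00000019220 and ENSCAFG00000042945), GYG1, ASB13, SEPTIN5, the stress gene GADD45B, ERO1A, which forms disulfide bonds in the endoplasmic reticulum, ALAS1, the first enzyme of heme synthesis, and FAM177A1, with r from 0.81 to 0.86. The sums share libraries, depth and cells, so r is a description. They include the T cell gate of the sorted libraries, whose label does not describe its cells. CHI3L1 stood at 62.1 CPM on average in the ELANE gate and at 1.38 CPM in the sorted MPO gate, while ALAS1 stood at 948 and 439 CPM in the same gates. With the gate genes MPO and ELANE, r was 0.88 and 0.85. It was 0.79 with SERPINB1, 0.78 with CEBPE and 0.77 with SRGN, against 0.11 with GZMA and 0.080 with PRF1. PRF1 was near the floor, with 10 UMIs in the whole-marrow T cell gates and 0 in the MPO and ELANE gates, so its r says little. In whole marrow alone 7 of the 10 genes were among the 10 most like GZMB.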

How the data were processed

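Droplet 3' single-cell libraries (10x Genomics) of dog bone marrow were analysed as deposited UMI counts, whole numbers per gene and barcode with no normalization by the authors. Cell Ranger made the matrices (version 7.0.1 per the file headers, 7.1.0 per the submitters' processing notes), with CanFam 3.1 as build per the submitters' processing notes. The annotation's version was not given in the sources used here; 4432 of 20257 features carry an identifier only. Libraries were grouped by their labelled cell type, and each whole marrow is a separate dog.

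Kept barcodes had 200 or more genes and no more than 10% of UMIs from 13 mitochondrial genes. Doublets, scored with scanpy 1.11.5 at 0.8% per 1000 barcodes (1036 cells), were kept, and removed in an alternative. CPM is GZMB UMIs per 1000000 UMIs summed over the cells of a gate, given for at least 20 cells. Thinning drew 1000 UMIs per cell without replacement and left out shallower cells (79, 23 and 8 in the whole-marrow MPO gates). GZMB was chosen for its pattern over the gates, so its levels across gates carry no test, and its difference by sort is given with no p-value.

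Sums per library and gate were tested with edgeR 4.0.16 (R 4.3.3): trimmed-mean scaling, default low-count filter, robust quasi-likelihood F test, Benjamini-Hochberg adjustment over all genes, threshold 0.05, the library as block between gates (residual degrees of freedom 2, 2 and 4) and none for the sort (3). The sort fit with the dog as block left 1 residual degree of freedom. The small residual degrees of freedom mean that the spread is taken largely from all genes. SE is the log2 difference divided by the square root of F. Gate genes and GZMB are left out of list counts. The fits were checked on simulated counts. Alternatives included DESeq2 1.42.0.

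The rule named up to 6 called members per list and comparison, the known partners of GZMB, and the 10 genes most like it. Members, lists and gates were chosen with earlier results of these data known. The erythroid reference, the VPREB1 split, the limits of 5 MPO UMIs and of 0.1% ELANE in the T cell gate, the fit without CAMP cells and the scaling by library size alone were chosen after the data were seen. The protocol names marrows 2 and 3 as the source of the sorted cells, and the library names tie sorted library 1 to marrow 2 and sorted library 2 to marrow 3. Deviations from group means correlated at 0.23 and 0.22 over 7505 genes for these pairs, and at -0.23 and -0.22 for the crossed ones. Labelled replicate numbers do not pair the groups. Some members of the list of granzyme B targets are not reported here, so no count is given for that list. No sequences are shown.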

Additional observations from a re-analysis of the deposited data

How the results depend on the processing

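GZMB levels moved with the gates. With a mitochondrial limit of 5% the whole-marrow MPO gate mean was 1989 CPM and the sorted one 693 CPM (1 library left with 20 cells), and the T cell gate mean 686 CPM. An ELANE limit of 2% gave 1266 CPM in whole marrow and 601 CPM in sorted marrow. In the sorted MPO gate, where the spread is only 11.4 CPM, the mean was 554 CPM without scored doublets, 548 CPM in single-gate cells, 703 CPM at 0.2% MPO, 455 CPM at 0.05% MPO, 487 CPM at an ELANE limit of 0.5% and 482 CPM after thinning. The T cell gate gave 209 CPM in single-gate cells, 261 CPM after thinning and 162 CPM with ELANE under 0.1%. The ELANE gate mean stayed within its spread in every alternative run.

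Genes called in the MPO against ELANE comparison numbered 4021, 2306 with DESeq2 and 2121 with no replicate block. Against the T cell gate they numbered 1571, 865 with DESeq2, 638 with no replicate block and 524 to 1885 with 1 library left out (524 without marrow 2). Against the stem-like gate they numbered 3509, 1850 with no replicate block and 2180 to 4081 with 1 library left out (2180 without sorted library 2, 2268 without sorted library 1). For the sort they numbered 132, 300 with DESeq2, 314 with no low-count filter, 464 with the dog as replicate block, 63 at 0.2% MPO, 70 without CAMP cells and 14 to 165 with 1 library left out (14 and 15 without sorted library 2 or 1, 76 without marrow 2). The GZMB sort difference was -0.94 with the dog block, 0.22 at 0.2% MPO, where marrow 3 fell under 20 cells, and -0.94 to -0.20 with 1 library left out. With library sizes alone as scaling in the MPO against ELANE comparison, 5314 genes were called, and LAMP1 (0.23) and MYB (0.15) reversed. Of the named genes' alternatives 68 lost their call and 2 reversed, these LAMP1 and MYB, and the cause was not tested. Depth limits the MPO gate of whole marrow, where shallow cells enter on 1 MPO UMI.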
